A study of Mus musculus with 10 samples.

Results

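Mitotic pallial progenitors were taken from cortical single-cell RNA sequencing libraries of 10 E16.5 mouse embryos, an age late in neurogenesis. They were chosen by their own measured transcripts: a kept cell was a member when at least 4 of the 7 mitotic genes Top2a, Ube2c, Cenpf, Cdc20, Ccnb1, Cenpe and Tpx2 were detected in it and Dlx1, Dlx2 and Dlx5 together gave at most 1 unique molecular identifier (UMI), the count of 1 captured transcript. A cell was kept with 1000 UMIs or more of which no more than 10% were mitochondrial. Of 80071 barcodes 65779 were kept, and 1665 of these (2.53%) were members. WT embryos gave 166, 170 and 157 members, Het embryos 186, 129, 158 and 199, and KO embryos 184, 134 and 182. Inside the set, 703 members (42.2%) held at least 1 UMI of Eomes and are called Eomes-positive, and 962 held none. The cut runs through low counts, since 126 of the Eomes-positive members held exactly 1 Eomes UMI and 577 held 2 or more.

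The embryos were WT (n = 3), Gatad2b stop/+ (Het, n = 4) and Gatad2b stop/stop (KO, n = 3), all on a C57BL/6N-Atm1Brd background, in which Atm1Brd is an allele of the agouti coat colour gene, with 1 library per embryo and no treatment. The stop allele is the tm1a gene trap of the EUCOMM programme, present in every cell of a mutant from conception. Its cassette sits in an intron, and the later exons remain in the genome, so reads at the 3′ end of Gatad2b need not be lost. Whole cortex was dissociated with papain, and the labels give neither the litter nor the sex of an embryo.

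During corticogenesis the neurons of the cortex that use glutamate arise in the pallium, from radial glia that divide at the ventricular surface. Radial glia express Pax6, Sox2 and, under Notch signalling, Hes1 and Hes5. They give rise to intermediate progenitors, which express the T-box factor Eomes (Tbr2) and divide away from the ventricle to produce neurons. Interneuron precursors come instead from the subpallium, where the homeobox genes Dlx1, Dlx2 and Dlx5 are active, and this is why Dlx was used to set them aside. Late in this period progenitors of the cortex also turn to making glia. The 7 mitotic genes are switched on from late S phase to mitosis: Top2a untangles sister chromatids, Ccnb1 is the cyclin of mitotic entry, Cenpf and Cenpe act at kinetochores, Tpx2 builds the spindle, and Ube2c and Cdc20 serve the anaphase-promoting complex.

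The promoters of 4 of these genes are shown because the set is defined by genes that the cell cycle switches on together. Each run holds 250 bases before and 50 bases after the RefSeq start of the gene in GRCm38.p6, printed 5′ to 3′ on the strand of the gene. Capitals mark 2 motifs: the CCAAT box (CCAAT, or ATTGG on the opposite strand), bound by NF-Y, and the cell cycle homology region, or CHR element (TTTGAA or TTCGAA, with TTCAAA as the reverse of the first), bound by the DREAM and MuvB complexes. In Ube2c 1 CCAAT and 1 ATTGG overlap.
Top2a (chr11:99024140-99024439, minus strand): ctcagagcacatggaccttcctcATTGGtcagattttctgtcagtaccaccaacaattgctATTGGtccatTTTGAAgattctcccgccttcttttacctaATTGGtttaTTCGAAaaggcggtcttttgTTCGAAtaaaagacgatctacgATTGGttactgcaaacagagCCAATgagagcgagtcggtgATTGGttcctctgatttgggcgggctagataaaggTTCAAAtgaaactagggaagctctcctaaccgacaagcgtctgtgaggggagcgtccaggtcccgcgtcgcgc
Ube2c (chr2:164769679-164769978, plus strand): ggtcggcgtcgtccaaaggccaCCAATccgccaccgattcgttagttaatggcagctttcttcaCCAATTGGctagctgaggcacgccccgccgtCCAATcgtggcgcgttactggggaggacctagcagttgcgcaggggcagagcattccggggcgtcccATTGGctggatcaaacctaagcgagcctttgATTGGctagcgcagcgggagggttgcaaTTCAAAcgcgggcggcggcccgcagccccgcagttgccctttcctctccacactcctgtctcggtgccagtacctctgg
Cenpf (chr1:189688037-189688336, minus strand): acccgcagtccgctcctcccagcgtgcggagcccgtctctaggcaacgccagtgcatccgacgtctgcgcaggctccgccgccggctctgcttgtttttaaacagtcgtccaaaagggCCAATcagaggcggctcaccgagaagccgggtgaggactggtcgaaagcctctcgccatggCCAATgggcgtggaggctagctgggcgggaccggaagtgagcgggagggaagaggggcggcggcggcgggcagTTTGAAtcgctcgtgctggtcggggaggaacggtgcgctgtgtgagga
Cdc20 (chr4:118437294-118437593, minus strand): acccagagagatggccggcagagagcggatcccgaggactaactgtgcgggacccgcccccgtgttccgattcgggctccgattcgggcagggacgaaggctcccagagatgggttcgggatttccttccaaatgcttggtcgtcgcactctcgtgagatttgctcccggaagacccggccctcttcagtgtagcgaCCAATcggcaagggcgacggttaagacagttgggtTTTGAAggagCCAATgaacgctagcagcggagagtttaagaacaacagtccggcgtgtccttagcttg
Top2a held 6 CCAAT boxes and 4 CHR elements in this window, and Ube2c held 6 and 1. Cenpf and Cdc20 held 2 CCAAT boxes and 1 CHR element each. Windows were found for 6 of the 7 rule genes, and all 6 held a CCAAT box, against 37.4% of 32851 promoter windows of the same length. A CHR element was found in 4 of the 6, against 19.2% of all windows. The letters are a description of sequence and say nothing of binding in these cells.

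Other cell cycle genes, from lists chosen with earlier results of these data known, were searched in the same way. Among mitotic kinases and cyclins 11 of 11 genes held a CCAAT box and 9 (81.8%) a CHR element. Among genes of the spindle, kinetochore and cytokinesis the counts were 19 and 21 of 31, and among condensin and cohesin genes 7 and 7 of 13. Of DNA replication genes 15 of 24 held a CCAAT box and 4 a CHR element. A CHR element was held by 3 of 26 radial glia genes and by 3 of 14 intermediate progenitor genes.

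The rule genes give the description of the set and are not a finding. Top2a was detected in 92.3% of members (87.3% to 95.5% over embryos) with a mean of 20.7 UMIs per member. Ube2c was detected in 92.2% (15.0 UMIs), Cenpf in 94.7% (20.7 UMIs) and Tpx2 in 90.2% (10.8 UMIs). Cenpe was found in 82.4% of members, Ccnb1 in 76.3% and Cdc20 in 74.0%. In the other kept cells with at most 1 Dlx UMI, Top2a was detected in 3.23% to 5.97% of the cells of an embryo. Ube2c does not single out the members: it was also detected in 94.3% of cells of the erythroid rule, and at equal depth in 69.3% of both. All 7 genes were detected in 843 members. Just inside the threshold, 286 members had 4 of the 7 genes and a mean of 11.2 UMIs over the 7, and just outside it 494 cells had 3 of them and a mean of 6.74. On the Dlx side, Emx1, a homeobox gene of the pallium, was detected in 50.1% of the 1420 members without a Dlx UMI, in 45.7% of the 245 members with 1, and in 34.8% of the 92 mitotic cells with 2, which were left out.

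The pallial part of the label was checked with markers that the rule had not used. Lhx2, a homeobox gene of cortical progenitors, was detected in 84.3% of members, Sox2 in 79.3%, Pax6 in 72.4%, Emx2 in 55.6%, and Emx1 and the proneural gene Neurog2 each in 49.4%. Hes5 was found in 46.7% and Hes1 in 41.0%. Not all of these separate pallium from subpallium: in the mitotic Dlx-positive cells Sox2 was detected in 98.2%, Pax6 in 54.1%, Lhx2 in 50.8% and Emx2 in 28.0%, against 9.84% for Emx1 and 7.75% for Neurog2. Against the label, 404 members (24.3%), all of them Eomes-negative, showed none of Emx1, Neurog2, Eomes and Neurod6. Neurod6 was also detected in 29.0% of interneurons, 31.7% of erythroid cells and 33.8% of mitotic Dlx-positive cells, so 1 UMI of it is no mark of pallium and the 404 are a lower count of members without pallial markers. A further check found that 115 members carried at least 3 of the 12 subpallial markers. Gad2, an enzyme of GABA synthesis, was detected in 12.1% of members and Nkx2-1 of the ventral telencephalon in 2.16%. Of all members, 219 (13.2%), 117 of the 404 among them, carried at least 3 markers of a lineage outside the neuroepithelium or of oligodendrocyte precursors. They comprised 98 with oligodendrocyte precursor markers, 65 with mural or meningeal, 60 with endothelial, 34 with microglial, 11 with erythroid and 6 with choroid plexus markers, some counted under more than 1 lineage. Of these, 200 were among the 962 Eomes-negative members and 19 among the 703 Eomes-positive members, so the results below are also given without them where it matters; 1446 members then remained, 684 Eomes-positive and 762 Eomes-negative.

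Some features of the libraries move with genotype. Library names carry 1 of 2 prefixes, whose meaning was not given in the sources used here: WT 1 to 3 and Het 4 share 1 prefix, and Het 1 to 3 and KO 1 to 3 share the other, so prefix and genotype cannot be told apart between KO and WT. The share of members with markers of another lineage was 18.3 ± 0.201% in WT (SD, n = 3), 13.4 ± 3.46% in Het (n = 4) and 8.71 ± 2.99% in KO (n = 3). The summed level of 7 oligodendrocyte precursor markers was 178 to 276 CPM over WT embryos, 93.9 to 155 over KO embryos and 69.2 to 275 over Het embryos, and that of 7 endothelial markers 268 to 791 over WT, 318 to 588 over Het and 110 to 1017 over KO embryos; every marker of both lists was above 0 in each group. CPM are UMIs of a gene for every 1000000 UMIs of the members of an embryo, plain in these sums and TMM-normalized in the tests below. Of 7 erythroid markers 5 were at 0 in KO (Slc4a1, Hemgn, Epb42, Rhag and Trim10) and none in WT. How far these cells take part in the results below was not tested beyond leaving them out. The choroid plexus transcript Ttr was found in 42.2% of all kept cells of WT 1, 5.66% of WT 2, 1.95% of WT 3 and at most 0.178% elsewhere. Kept UMIs ranged from 82872641 to 123737385 per embryo, and the members of an embryo held 3170365 to 5365789. Members were deep cells, with a median of 20331 UMIs and 4946 genes against 13691 and 3995 in the other kept cells, and 326 (19.6%) were marked as doublets against 6.59% of kept cells. No barcode was shared between members of different libraries, although 29 members had the barcode of a kept cell of another library.

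The first question was whether the mutants held more or fewer of these cells. Members were 2.05, 2.37 and 2.01% of the kept cells of the WT embryos, 3.18, 2.10, 2.81 and 2.51% in Het and 3.14, 2.60 and 2.95% in KO. Every KO embryo lay above every WT embryo, and the Het embryos spread over both ranges. The mean was 2.14 ± 0.200% in WT (SD, n = 3), 2.65 ± 0.461% in Het (n = 4) and 2.90 ± 0.271% in KO (n = 3). The difference of KO from WT was 0.751 percentage points (two-sided exact permutation test, p = 0.1, the smallest value that 3 against 3 can give; 0.229 adjusted over 6 share comparisons), of Het from WT 0.508 points (exact p = 0.114, adjusted 0.229) and of KO from Het 0.244 points (exact p = 0.457, adjusted 0.549). None passed the threshold. KO against WT could not pass it, since 0.1 is the floor, and 3 against 4 leaves few arrangements too. The lack of a pass is therefore not read as a lack of difference. The KO and WT libraries also differ in prefix. The rise was not particular to members. Mitotic cells with at least 2 Dlx UMIs had a mean of 2.30% of kept cells in WT and 4.06% in KO. Non-mitotic pallial progenitors, defined below, had 1.65% in WT and 3.68% in KO. Of all cells with at least 4 mitotic genes, members were 48.5% in WT and 41.6% in KO. These shares did not overlap between WT and KO embryos and were not tested. A share of all kept cells also depends on how many other cells were captured, and from it more members and fewer other cells cannot be told apart.

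**Figure D1:**
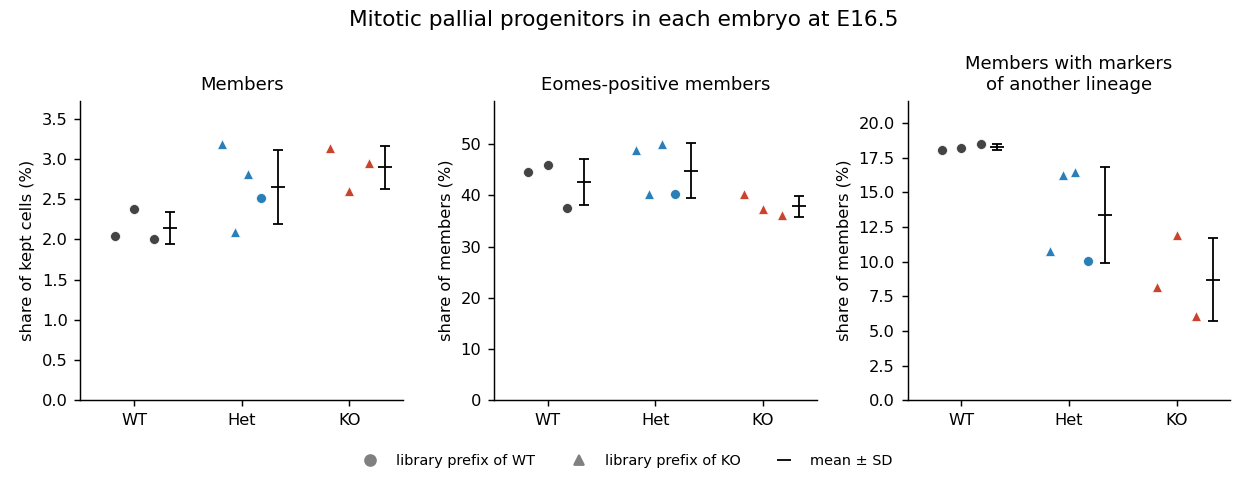
Members in percent of kept cells (left), and Eomes-positive members (middle) and members with markers of another lineage (right) in percent of members, by genotype, 1 point per embryo, with mean ± SD; circles and triangles are the 2 library prefixes. Shares of members run from 2.01 to 2.37% in WT and from 2.60 to 3.14% in KO, the Eomes-positive shares of the 3 groups overlap, and the share with other markers is 18.1 to 18.5% in WT and 6.04 to 11.9% in KO.

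Eomes-positive cells were counted among the dividing cells of each genotype next. No difference in their share passed the test, but with 3 embryos in each group KO against WT could not have passed it. The Eomes-positive share of members was 44.6, 45.9 and 37.6% in WT, 48.9, 40.3, 50.0 and 40.2% in Het, and 40.2, 37.3 and 36.3% in KO. Means were 42.7 ± 4.47% (SD, n = 3), 44.9 ± 5.33% (n = 4) and 37.9 ± 2.05% (n = 3). KO and WT overlapped, as did KO and Het (differences -4.75 and -6.93 points, exact permutation p = 0.2 and 0.114, adjusted 0.3 and 0.229), and Het differed from WT by 2.18 points (exact p = 0.686, adjusted 0.686). Without the members of other lineages the shares were 51.0 ± 4.98% in WT, 49.8 ± 4.57% in Het and 40.9 ± 2.07% in KO, and the difference of KO from WT was -10.1 points (exact p = 0.1), with WT embryos from 45.3 to 54.7% and KO embryos from 38.6 to 42.6%. That p is the smallest 3 against 3 can give. The direction turned, to 0.270 points, when cells with 3 of the 7 mitotic genes were admitted. Without WT 3, Het lay below WT (-0.371 points).

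Detection of Eomes was set against cells that should lack it. After each cell was reduced to 5000 UMIs, Eomes was detected in 34.1% of 1502 members, in 3.73% of 2039 mitotic cells with at least 2 Dlx UMIs, in 1.31% of 7864 interneurons and in 1.57% of 381 erythroid cells. Before thinning the shares were 42.2, 6.64, 1.87 and 2.60%, at median depths of 20331, 17612, 8770.5 and 18247 UMIs. The member share lay above that of each of these cell types, which serve as the background from free RNA. Eomes-positive members were deeper than Eomes-negative members (medians of 23032 and 18790 UMIs).

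Dividing cells with and without Eomes were then compared, with the UMIs of each state summed per embryo and the 2 sums of an embryo paired. Genes of neurogenesis were mostly higher in Eomes-positive members, and most radial glia genes were higher in Eomes-negative members. The Eomes-negative state is mixed and is not named radial glia. Of its 962 members, 404 (42.0%) showed none of Emx1, Neurog2, Eomes and Neurod6, and 200 (20.8%) carried markers of another lineage. Hes5 was detected in 54.2% and Hes1 in 53.6% of this state. Of 10627 genes tested in edgeR's quasi-likelihood test, 4512 (42.5%) passed an adjusted p of 0.05 with an absolute log2 fold change above 0.25, 2126 (20%) higher and 2386 (22.5%) lower in Eomes-positive members; these calls are the background against which the counts below are read. Without the members of other lineages, 3343 of 9686 genes (34.5%) were called, 1585 (16.4%) higher and 1758 (18.1%) lower. With both states reduced to the same number of UMIs per cell 2954 of 7614 genes tested were called, and 2059 of 8332 when members were required to hold Emx1 and no Dlx UMI. States were set by 1 gene in the same cells, so genes that go with Eomes from cell to cell were bound to differ.

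All 17 tested genes of the 20 in the intermediate progenitor list were higher in Eomes-positive members (median log2 fold change 2.23, against 0.01 over all genes tested). Neurog2, the proneural factor that drives the step from radial glia to intermediate progenitor, ranged from 16.7 to 65.6 CPM in the Eomes-negative sums (median 33.4) and from 249.6 to 442 CPM in the Eomes-positive sums (median 349). The states did not overlap, and the log2 fold change was 3.41 ± 0.16 (edgeR, adjusted p = 2.91e-10). Its target Neurod1 ranged from 6.76 to 35.6 CPM in the Eomes-negative sums (median 22.7) and from 101 to 269.8 CPM in the Eomes-positive sums (median 161), a log2 fold change of 2.94 ± 0.19 (edgeR, adjusted p = 9.66e-09). Insm1, a zinc finger factor of delaminating progenitors, ranged from 50.7 to 103 CPM in the Eomes-negative sums (median 77.7) and from 289 to 452 CPM in the Eomes-positive sums (median 354) (log2 fold change 2.23 ± 0.08). Neurod4 was nearly absent without Eomes, with at most 0.638 CPM in any Eomes-negative sum against 7.95 to 36.8 CPM with it. Rnd2, a small GTPase of neuronal migration downstream of Neurog2, had a log2 fold change of 2.22 ± 0.11.

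The 10 largest increases with a mean of at least 20 CPM were Neurog2, Sstr2, Mfap4, Neurod1, Elavl4, Clvs1, Slc17a6, Nrn1, Myt1 and Elavl2, each higher in all 10 embryos. Sstr2, a somatostatin receptor, ranged from 4.51 to 17.8 CPM in the Eomes-negative sums (median 9.36) and from 80.2 to 128 CPM in the Eomes-positive sums (median 108) (log2 fold change 3.35 ± 0.16). Elavl4 and Elavl2, neuronal RNA-binding proteins, had log2 fold changes of 2.75 ± 0.10 and 2.54 ± 0.10, Myt1, a zinc finger factor of neurogenesis, 2.55 ± 0.17, and the vesicular glutamate transporter Slc17a6 2.58 ± 0.19. Of 23 genes of neuron differentiation 18 were higher and 1, Mef2c, lower. Doublecortin, the microtubule protein Dcx of migrating neurons, rose from a median of 123 to 395 CPM (log2 fold change 1.66 ± 0.15), Sox11 and Sox4 by 1.63 ± 0.10 and 1.37 ± 0.05, and Tbr1, which follows Eomes in postmitotic cells, by 1.42 ± 0.19. Of these sets, 20.1% of Eomes-positive and 19.2% of Eomes-negative members were marked as doublets, and 3694 genes were called without them.

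**Figure D2:**
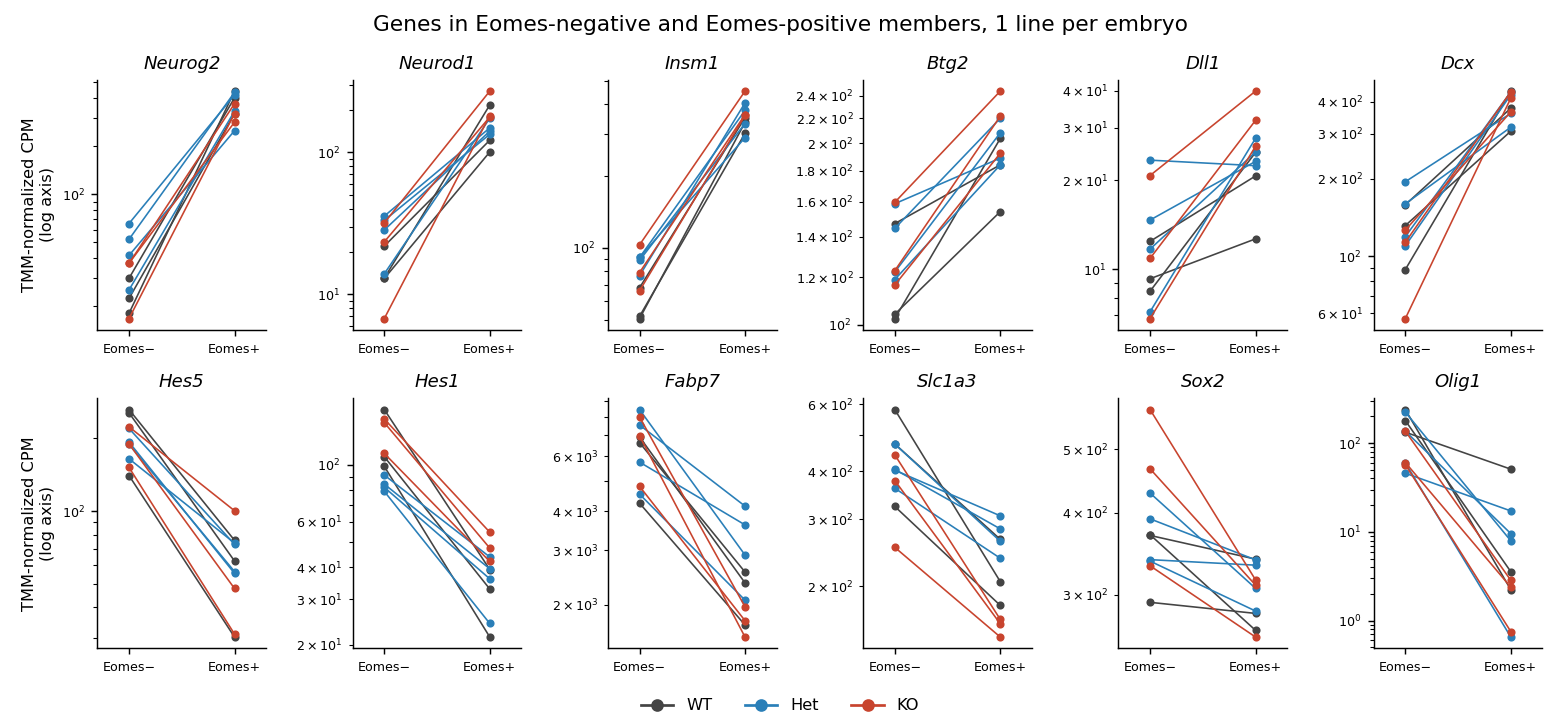
Level of 12 genes in TMM-normalized CPM (log axis) in the Eomes-negative and Eomes-positive members of each embryo, with 1 line per embryo coloured by genotype. Lines rise for Neurog2, Neurod1, Insm1, Btg2, Dll1 and Dcx in the upper row, except for Dll1 in 1 Het embryo, and fall for the other 6 genes; Hes5 lies between 140.2 and 263 CPM without Eomes and between 30.1 and 100.3 CPM with it.

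Radial glia genes moved the opposite way. Of 28 genes 22 were lower in Eomes-positive members and 3 (Pax6, Lhx2 and Emx1) higher, with a median log2 fold change of -0.81. Hes5, an effector of Notch, ranged from 140.2 to 263 CPM in the Eomes-negative sums (median 191) and from 30.1 to 100.3 CPM in the Eomes-positive sums (median 59.2), without overlap (log2 fold change -1.74 ± 0.10, edgeR adjusted p = 2.54e-09). Hes1 ranged from 78.8 to 164 CPM in the Eomes-negative sums (median 103) and from 21.4 to 54.7 CPM in the Eomes-positive sums (median 39.3) (log2 fold change -1.54 ± 0.10). The fatty acid binding protein Fabp7 had a log2 fold change of -1.40 ± 0.12, Hopx, which marks outer radial glia in primates, -1.26 ± 0.15, the glutamate transporter Slc1a3 -0.90 ± 0.10, and the intermediate filament genes Nes and Vim -0.81 ± 0.07 and -0.55 ± 0.11. Sox2 fell only by 0.35 on the log2 scale, with overlapping ranges of 292 to 574 and 258 to 339.8 CPM. Pax6 was higher with Eomes (0.66 ± 0.10), a call that was lost without the members of other lineages (0.19); Lhx2 (0.98 ± 0.05) and Emx1 (1.73 ± 0.10) kept it. Without those members 23 radial glia genes were lower and 2 higher, with a median of -1.10.

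Genes of the Notch pathway, through which a differentiating cell that shows the ligand keeps its neighbours undifferentiated, moved both ways. Of 21 pathway genes 6 were higher in Eomes-positive members: the ligands Dll1 (1.06 ± 0.18) and Dll3 (0.95 ± 0.20), Mfng (1.64 ± 0.10), a glycosyltransferase that acts on Notch, Hes6 (1.32 ± 0.11), which opposes Hes1, Numbl (1.04 ± 0.12) and Rbpj. The 12 that were lower included the receptors Notch1 (-0.35 ± 0.06), Notch2 (-0.63 ± 0.19) and Notch3 (-1.64 ± 0.13), the glycosyltransferase Lfng (-1.61 ± 0.15), the ligands Jag1 (-1.06 ± 0.16) and Jag2, and the targets Hes1, Hes5, Hey1 and Nrarp. Notch3 ranged from 20.0 to 39.3 CPM in the Eomes-negative sums (median 33.2) and from 6.03 to 15.9 CPM in the Eomes-positive sums (median 10.8), and the states did not overlap.

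Both states were selected on the same mitotic genes, so genes that go with these were bound to be alike, and the next values are a description of the states. Of 16 mitotic kinases and cyclins only Cdc25b, the phosphatase that starts mitosis, was called (0.38 ± 0.10), and the list had a median of 0.04. Of 16 condensin and cohesin genes only Ncapd3 was called. Of 35 genes of the spindle, kinetochore and cytokinesis, Spc25 was higher (0.44 ± 0.06), and the tubulins Tuba1c (-0.64 ± 0.11) and Tubb4b (-0.51 ± 0.07), Ckap2 (-0.35 ± 0.07) and Arl6ip1 were lower; the other genes of these 3 lists were not called. The members' mean number of detected mitotic rule genes was 6.14 with Eomes and 5.93 without, a value that the rule bounds.

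Of 28 S phase genes 12 were called, near the background of 42.5% for both directions together. By direction they were uneven: 11 of the 28 were higher in Eomes-positive members, against 20% higher and 22.5% lower over all genes tested. The 11 that were higher in Eomes-positive members included E2f1 (1.03 ± 0.12), the factor of S phase entry, Dut (0.88 ± 0.05) and Rrm2 (0.63 ± 0.11) of nucleotide synthesis, and Gins2 of the replication helicase was lower (-0.59 ± 0.10). Among 18 genes of cell cycle exit 8 were higher and 5 lower. Gadd45g, a stress and growth arrest gene of intermediate progenitors, ranged from 24.2 to 86.7 CPM in the Eomes-negative sums (median 41.7) and from 117 to 243 CPM in the Eomes-positive sums (median 184) (log2 fold change 2.05 ± 0.16). The antiproliferative gene Btg2, a mark of divisions that yield neurons, ranged from 102 to 159.7 CPM in the Eomes-negative sums (median 123) and from 154 to 244 CPM in the Eomes-positive sums (median 198), with the ends of the ranges overlapping (log2 fold change 0.63 ± 0.06). Cyclin D1 (Ccnd1) fell, from a median of 156 to 60.7 CPM (-1.48 ± 0.13), as did the CDK inhibitor Cdkn1a (-1.60 ± 0.20), while Cdk6 rose (1.00 ± 0.09). Cdkn1c, another inhibitor, was called (0.45 ± 0.16, edgeR adjusted p = 0.0239) and lost the call when any of Het 1, Het 3, Het 4, KO 1, KO 2 or KO 3 was left out.

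Of 19 genes of primary microcephaly and spindle orientation, 5 were higher in Eomes-positive members, near the 20% that were higher over all genes tested. The list thus does not stand out, and its genes are given as a description. Among the 5 were Cenpj (0.96 ± 0.09), which builds centrioles, Numa1 (0.51 ± 0.05), which anchors the spindle, and the polarity gene Pard3 (0.53 ± 0.10). Nde1, a dynein partner, was lower (-0.33 ± 0.10). Histone genes were higher in 13 of 19 cases and lower in 1, with Hist1h4c at 0.64 ± 0.10; most of their transcripts lack a poly(A) tail and the genes resemble each other, so their counts are uncertain. Of 15 genes of the NuRD complex, the chromatin remodeller of which Gatad2b is a subunit, 7 were higher and 2 lower: Cdk2ap1 (0.96 ± 0.06), the helicase Chd3 (0.86 ± 0.07) and the deacetylase Hdac2 (0.50 ± 0.05) rose and the methyl-DNA binding subunit Mbd2 fell (-0.66 ± 0.09). Gatad2b was called at 0.29 ± 0.06, and not without the members of other lineages (0.20) or without WT 2.

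The largest decreases belonged to other lineages. They included Arhgdib, Serpine2, Olig1, Cldn5, Car2, Col4a1, Gng11, Pglyrp1 and Lama4, each lower in all 10 embryos, and hold genes of endothelium (Cldn5, -3.63 ± 0.47), basement membrane (Col4a1, -3.42 ± 0.41) and oligodendrocyte precursors (Olig1, -3.84 ± 0.41). Every tested endothelial (7), mural or meningeal (6) and oligodendrocyte precursor (4) marker was lower in Eomes-positive members. This is a description, since a gene could pass the filter on low counts through the Eomes-negative sums alone. Markers of another lineage were also carried by 20.8% of Eomes-negative and 2.70% of Eomes-positive members. Of 11 immediate early genes, which dissociation can induce, 10 were lower, such as Junb (-2.52 ± 0.28), and with the other lineages left out 3 of 9 were lower and 1 higher. In that setting, chosen for display after the values were seen, the largest decreases included Olig1 (-3.03 ± 0.37), Olig2 (-2.41 ± 0.27), Id3 (-2.37 ± 0.23), Anxa2, Aldh1l1, Metrn, Lxn, Hes5 (-1.92 ± 0.10) and S100a16. Olig1 and Olig2 thus remained in Eomes-negative cells with fewer than 3 precursor markers, at 10.9 to 99.3 CPM for Olig2 against 0 to 20.0 CPM with Eomes. Both are among the markers that decided which members were left out, so their changes in this setting are a description.

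**Figure D3:**
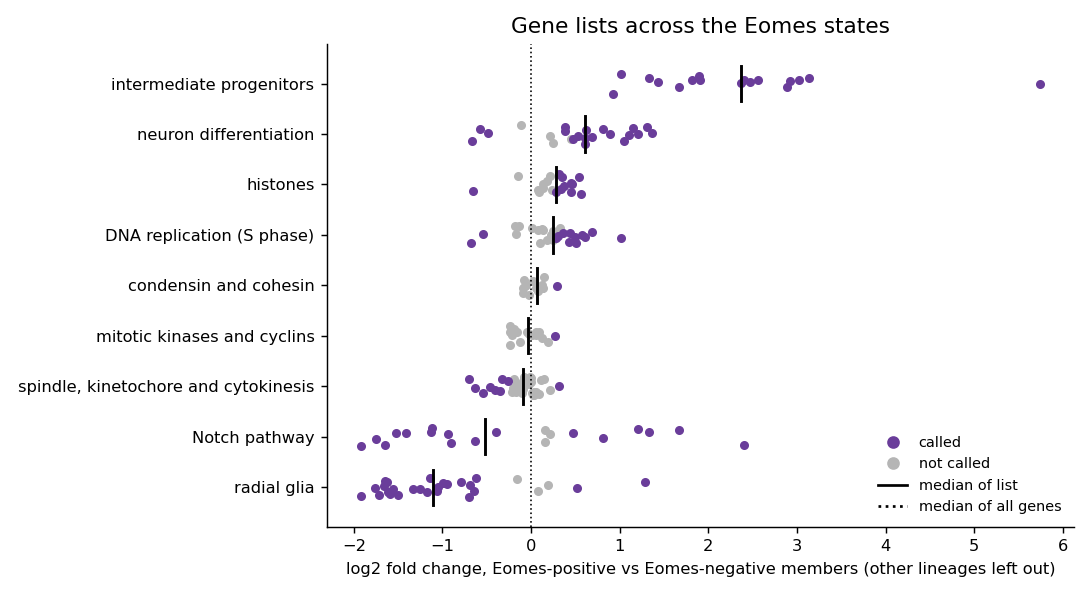
Log2 fold change of each tested gene of 9 lists between Eomes-positive and Eomes-negative members, without members of other lineages; purple points were called, grey points were not, bars are list medians and the dotted line is the median of all genes. Intermediate progenitor genes have a median of 2.37 and radial glia genes of -1.10, and mitotic kinases and cyclins of -0.04.

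Detection in single members is given as a description, with marked doublets left in. After thinning to 5000 UMIs, with the Eomes state read from the thinned counts, Pax6 was detected in 60.9% with Eomes and 46.9% without, and Sox2 in 58.4% with Eomes and 70.6% without. Neurog2 was detected in 72.3% with Eomes and 15.4% without, Hes5 in 14.5% with Eomes and 37.4% without and Hes1 in 6.45% with Eomes and 29.4% without. Olig2 was found in 1.76% with Eomes and 13.3% without, with a range over embryos of 5.08 to 23.5% in Eomes-negative members. These shares rest on 512 Eomes-positive and 990 Eomes-negative members. Before thinning Pax6 was detected in 87.3% with Eomes and 61.5% without, and Sox2 in 84.6% and 75.4%. In erythroid cells, which should lack these genes, a UMI of Sox2 was found in 7.01%, of Pax6 in 2.60%, of Hes1 in 3.90%, of Neurog2 in 2.86% and of Hes5 in 1.04%, without thinning and at a median of 18247 UMIs.

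Genotype was compared next, with the UMIs of all members summed per embryo, and the targeted gene was read first. Gatad2b stood at 126, 127 and 119 CPM in WT, 90.8, 89.3, 82.8 and 89.7 in Het and 46.6, 45.2 and 52.8 in KO. The 3 groups did not overlap and Het lay between the others. The log2 fold change was -1.37 ± 0.08 for KO against WT (edgeR, adjusted p = 1.38e-05), -0.87 ± 0.08 for KO against Het (adjusted p = 0.00124) and -0.50 ± 0.07 for Het against WT (adjusted p = 0.192, called only by DESeq2 or without Het 4). The order of the levels follows the labels, and transcript remained in KO.

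**Figure D4:**
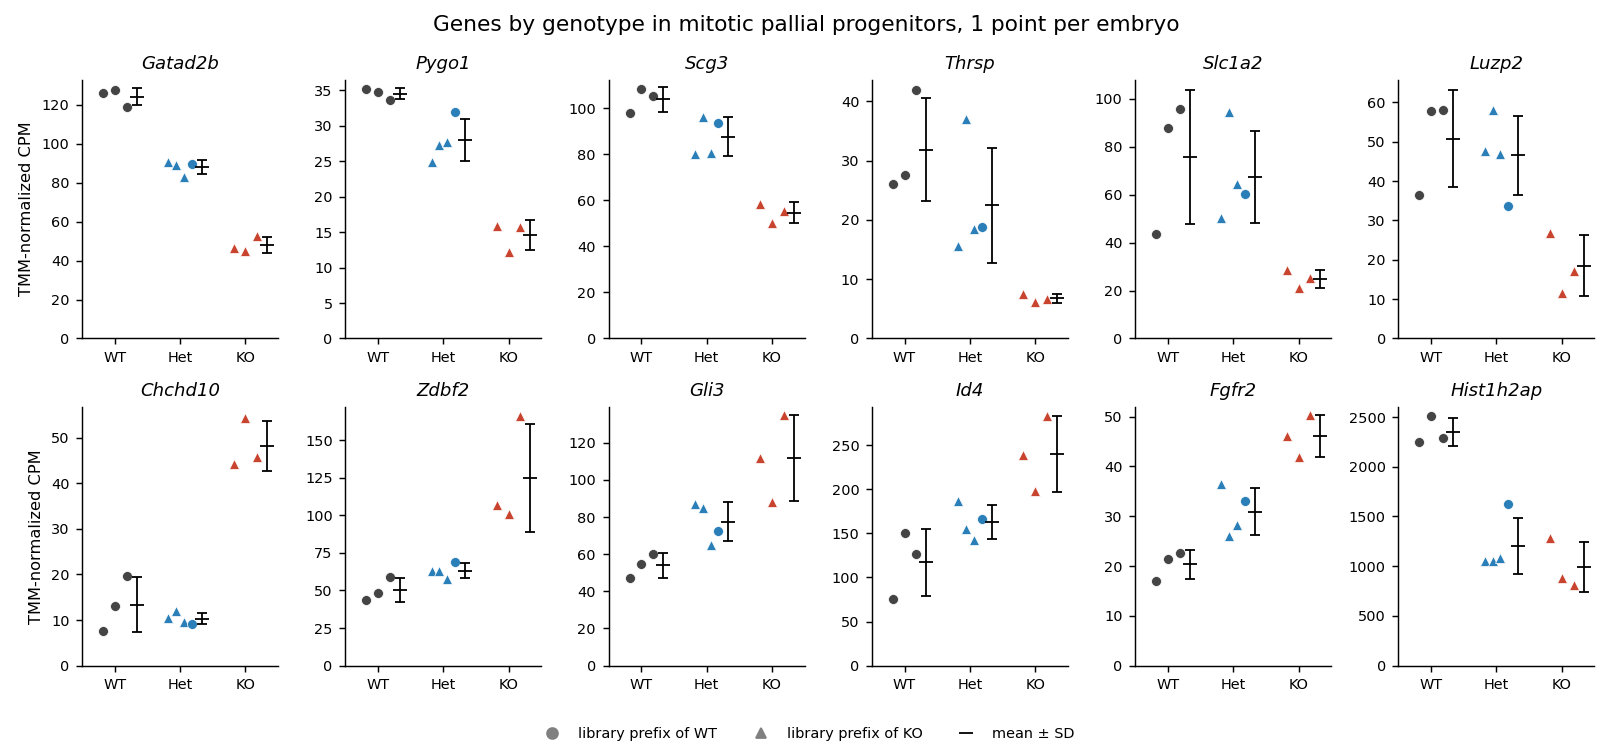
Level of 12 genes in TMM-normalized CPM in the members of each embryo, by genotype, with mean ± SD; circles and triangles are the 2 library prefixes. Gatad2b is lowest in KO, Chchd10 is raised in KO alone, and Hist1h2ap is lower in the libraries of the prefix that KO carries, with Het 4, of the other prefix, above the other Het embryos.

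Between Het and WT no gene was called among 12379 tested (0%) in edgeR's quasi-likelihood test. An unadjusted p under 0.05 was reached by 1056 genes. DESeq2 called 16, and edgeR 20 when Het 4 was left out. All 12 immediate early genes had a log2 fold change above 0 (median 0.41) without 1 being called, against 6126 of all 12379 genes. Among these genes Fos stood at 239, 350.2, 281 and 87.4 CPM in Het, 147, 83.6 and 72.1 in WT and 219, 231 and 246 in KO. Het 4, the 1 Het embryo with the prefix of WT, lay in the WT range and the other Het embryos above it. With 1 such embryo, prefix and embryo cannot be told apart within Het.

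Between KO and WT 323 genes (2.61%) were called, 181 (1.46%) higher and 142 (1.15%) lower in KO. Called higher in KO were the mitochondrial gene Chchd10, Shisa2, Fgfr2 and Gli3, and called lower were Gatad2b, Thrsp, Pygo1 and the transporters Slc1a2 and Slc4a4. The count fell to 71, 70 and 65 without WT 1, 2 and 3 and to 149, 177 and 65 without KO 1, 2 and 3, in fits with fewer embryos in that group. With the library prefix as a covariate, a fit in which prefix and genotype are separated by Het 4 alone, 1 gene, Gatad2b, was called. The log2 fold changes in that fit, none of them called, were 1.63 for Chchd10, 1.51 for Shisa2, 1.29 for Fgfr2, 1.62 for Lpar1, 1.49 for Zdbf2, 0.68 for Ifitm2, -2.50 for Thrsp and -0.96 for Pygo1, whose values without the covariate follow. With members restricted to cells with Emx1 and without Dlx UMIs 145 genes were called, and without the members of other lineages 720 of 11543 (6.24%), 375 (3.25%) higher and 345 (2.99%) lower, of which 292 were shared with the 323. Of the 20 genes named by rule, the 10 largest changes each way with at least 20 CPM and no overlap between KO and WT embryos, 11 kept their call with any embryo left out and 9 did not.

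Among the 11, Chchd10, which encodes a protein of the mitochondrial intermembrane space, stood at 7.50, 13.1 and 19.6 CPM in WT, 10.5, 11.9, 9.58 and 9.07 in Het and 44.3, 54.4 and 45.8 in KO. KO embryos lay above all others, and WT and Het overlapped (KO against WT 1.86 ± 0.24, edgeR adjusted p = 0.00524). The Wnt and FGF receptor inhibitor Shisa2 stood at 10.9, 15.5 and 11.0 CPM in WT, 26.0, 13.5, 21.4 and 19.8 in Het and 34.7, 34.6 and 43.3 in KO (1.57 ± 0.22). Fgfr2, a receptor for fibroblast growth factors, stood at 17.1, 21.4 and 22.6, 36.5, 26.0, 28.3 and 33.0 and 46.0, 42.0 and 50.3 CPM in the same order of groups (1.18 ± 0.15). Het embryos lay between WT and KO for Fgfr2, while for Shisa2 Het 2 fell in the WT range. Fgfr2 was not called with Emx1 and no Dlx UMI (0.36), and without other lineages it had 1.54 in Eomes-negative members and 0.17, not called (edgeR adjusted p = 0.774), in Eomes-positive members. Gli3, a Hedgehog pathway factor needed for pallial identity, stood at 47.1, 54.7 and 60.2 CPM in WT, 87.2, 84.9, 65.1 and 72.8 in Het and 112, 88.4 and 135 in KO (1.06 ± 0.16, edgeR adjusted p = 0.00907). The lysophosphatidic acid receptor Lpar1 (1.44 ± 0.20), the imprinted gene Zdbf2 (1.31 ± 0.18) and the interferon-induced Ifitm2 (1.06 ± 0.13) were also higher.

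Lower in KO were Thrsp, a regulator of fat synthesis, at 26.1, 27.6 and 41.9 CPM in WT, 15.6, 37.0, 18.4 and 18.8 in Het and 7.58, 6.08 and 6.73 in KO (-2.20 ± 0.33), and the Wnt coactivator Pygo1, at 35.2, 34.8 and 33.6, 24.9, 27.3, 27.8 and 32.0 and 15.9, 12.2 and 15.7 CPM (-1.23 ± 0.13, edgeR adjusted p = 0.00251). The histone gene Hist1h2ap stood at 2248, 2514 and 2290.0 CPM in WT, 1048, 1049, 1080.0 and 1627 in Het and 1279.7, 878 and 815 in KO (-1.25 ± 0.19). Within Het, Het 4, the 1 embryo with the prefix of WT, lay above the others, and with the prefix covariate the value was -0.63 (edgeR adjusted p = 0.54). The 9 genes that lost the call with some embryo left out were AC149090.1 (1.15 ± 0.24), Tspo (1.07 ± 0.18) and Id4 (1.03 ± 0.21), higher in KO, and Car2 (-2.27 ± 0.53), Slc1a2 (-1.58 ± 0.29), Slc4a4 (-1.41 ± 0.27), Luzp2 (-1.41 ± 0.28), Serpine2 (-1.26 ± 0.26) and Pcsk1n (-1.25 ± 0.28), lower. Losses came without WT 1, 2 or 3 or KO 1, 2 or 3, and for AC149090.1 (Het 3), Pcsk1n (Het 2) and Car2 (each Het embryo) also without a Het embryo. With the prefix covariate AC149090.1 was at 0.44 (edgeR adjusted p = 0.804), and with Emx1 and no Dlx UMI Id4 was at 0.64, Pcsk1n at -0.64 and Serpine2 at -0.28, none of them called. The Car2 value rested on WT 3, at 132 CPM against 36.5 and 36.3 in WT 1 and 2, and was -1.37 without it. Car2 was also not called without the members of other lineages (-1.38, edgeR adjusted p = 0.133), whose share was higher in WT.

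Radial glia genes held 4 called increases (Vim, Pdpn, Id4 and Gli3) and 1 called decrease (Mfge8) among 28 genes, with a median log2 fold change of 0.26 against -0.02 over all genes tested. Id4, an inhibitor of helix-loop-helix factors, stood at 75.8, 149.9 and 126 CPM in WT, 187, 155, 143 and 167 in Het and 239, 198 and 283 in KO. Vim ranged from 1192 to 1407 CPM in WT and 1718 to 1928 in KO (0.47 ± 0.08), and Pdpn, a membrane glycoprotein, from 39.1 to 52.0 and 65.0 to 105 CPM (0.88 ± 0.18). Mfge8, a secreted glycoprotein, was lower (-0.56 ± 0.11) and not called without the members of other lineages (-0.40). In that setting 9 genes were higher, adding Hes1 (0.66), Nes (0.61), Sox9 (0.58), Prom1 and Aldoc, and Tnc was lower. Those 9 are 9 of 28 beside a background of 3.25% in this direction, and all 28 had a median of 0.24. Of Vim, Pdpn, Id4 and Gli3, Gli3 alone kept its call whichever embryo was left out, and none kept it with the prefix covariate, where the log2 fold changes were 0.93 for Gli3, 1.07 for Id4, 0.46 for Vim and 0.74 for Pdpn. With Emx1 and no Dlx UMI Vim (0.22) and Pdpn (0.48) were not called, nor was Id4. The Eomes-positive share was 37.9% in KO and 42.7% in WT over all members, and 40.9% and 51.0% without other lineages, and its part in the result was not tested; within Eomes-negative members, again without other lineages, Gli3 (0.98), Id4 (0.90), Pdpn (0.82) and Vim (0.43) were called too, and within Eomes-positive members Gli3 was (0.85).

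Intermediate progenitor genes had a median of 0.19 over 20 genes without a called gene; without other lineages Neurog2 (-0.43) and Kif26b were lower, beside Eomes-positive shares of 40.9% in KO and 51.0% in WT in that setting, whose part in the result was not tested. Of 22 Notch genes, the receptor Notch2 (0.96 ± 0.15) and the feedback inhibitor Nrarp (0.42 ± 0.09) were higher. Notch2 stood at 29.5, 34.6 and 35.5 CPM in WT, 55.6, 51.4, 47.7 and 46.6 in Het and 58.9, 52.8 and 81.0 in KO, and Het and KO were both above WT. Its call was lost without WT 1 and with Emx1 and no Dlx UMI (0.43), and that of Nrarp without any WT embryo, KO 2 or KO 3. Of 23 neuron differentiation genes only Sox5 was called (0.46 ± 0.10).

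The members were selected on mitotic transcripts, so nothing is read from the genes of division, which are described here beside the 2.61% called over all genes. The median log2 fold change was 0.13 over 16 mitotic kinases and cyclins, where Cks2, a CDK subunit, was called (0.45 ± 0.09; 0.24, not called, with Emx1 and no Dlx UMI), 0.06 over 35 spindle, kinetochore and cytokinesis genes, where Tuba1c was called (0.91 ± 0.14), and -0.06 over 16 condensin and cohesin genes. It was -0.06 over 19 genes of primary microcephaly and spindle orientation and -0.15 over 28 S phase genes, of which 24 lay below 0, as did 6517 of all 12379 genes. The tubulin gene Tuba1c stood at 46.8, 43.7 and 49.8 CPM in WT, 64.4, 62.0, 46.2 and 45.4 in Het and 86.8, 93.2 and 83.2 in KO, above both other groups, and kept its call with any embryo left out, with 0.56, not called, under the prefix covariate. Among 19 genes of cell cycle exit, cyclin D2 (Ccnd2), which supports the expansion of progenitors, was lower, at 719.7, 772 and 891 CPM in WT, 658, 719.9, 636 and 614 in Het and 523, 426 and 607 in KO (-0.61 ± 0.12, edgeR adjusted p = 0.0269). KO embryos lay below all others, Het 2 lay in the WT range and the other Het embryos below it, and the call was lost without any WT embryo, KO 1 or KO 2.

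Among 15 NuRD genes Gatad2b alone was called, with a list median of -0.04. Of 19 histone genes 3 were higher (H1f0, 0.43 ± 0.08; H3f3b, 0.45 ± 0.09; Hist1h1e, 0.73 ± 0.16) and 2 lower (Hist1h2ap and Hist1h2ae, -0.55 ± 0.11). Of 12 immediate early genes Jun (0.60 ± 0.14) and Jund (0.53 ± 0.10) were higher, with a list median of 0.52; Jund had 396 to 417 CPM over WT embryos, 541 to 636 over KO embryos and 471 to 633 over Het embryos, and within Het the embryo with the WT prefix had 471. Apart from Hist1h2ap, each of these histone and early genes lost its call without any 1 WT embryo and without at least 1 KO embryo. With the prefix covariate H3f3b was at 0.12, Hist1h1e at 0.13, Hist1h2ae at -0.37, Jun at 0.24 and Jund at 0.21, none of them called. The median over 13 mitochondrially encoded genes was 0.08. Oligodendrocyte precursor markers had a median of -0.83 over 7 genes. Olig2 stood at 62.1, 46.4 and 69.1 CPM in WT and 16.3, 24.3 and 26.7 in KO (-1.41 ± 0.43, edgeR adjusted p = 0.099), and was not called. Without the members of any other lineage it had -2.14 (edgeR adjusted p = 0.0164). That call is not read as a result, because Olig2 is 1 of the markers that decided which members were left out. Those left out were 18.3% of WT and 8.71% of KO members.

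Between KO and Het, where most libraries share a prefix, 10 genes (0.0808%) were called: Chchd10, Syt13 and Crabp2 higher, and Gatad2b, Pygo1, Scg3, Nav2, Gpr34, Gabrb1 and Arfgef3 lower. Without the members of other lineages 64 of 11543 genes (0.554%) were called. Chchd10 (2.23 ± 0.22, edgeR adjusted p = 0.0023) and Gatad2b kept their calls with any embryo left out, in the prefix covariate fit, and within the libraries of 1 prefix, Het 1 to 3 against KO 1 to 3 (adjusted p = 0.00246 and 0.0342). Both lost them with the replicate number as a block, a fit that called no gene between KO and Het. Pygo1 (-0.92 ± 0.13), Scg3 (-0.67 ± 0.09), a granule protein, at 80.0, 96.2, 80.6 and 93.4 CPM in Het and 58.5, 50.0 and 55.5 in KO, and Nav2 (-0.59 ± 0.09) did not overlap between KO and Het, and lost their calls when single embryos were left out. Counts without 1 embryo ranged from 2 (without KO 1 or KO 3) to 9 (without WT 1), with 4 to 6 without any 1 Het embryo, 4 without KO 2 and 5 without WT 2. KO against WT, Het against WT and KO against Het share embryos, so their values are not independent.

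Whether the change with genotype differed between the Eomes states was tested as an interaction. Of 11813 genes 2 (0.0169%) were called at an adjusted p under 0.05. Ucp2, a mitochondrial carrier, changed by 1.83 between KO and WT in Eomes-positive members and by -1.10 in Eomes-negative members (difference 2.99 ± 0.35, edgeR adjusted p = 0.00347). Klf4, a zinc finger factor, differed by 2.61 ± 0.35 (adjusted p = 0.00973). Without the members of other lineages the difference was 2.75 for Ucp2 (edgeR adjusted p = 0.0803) and 1.45 for Klf4 (adjusted p = 0.478); neither was called, although 2 other genes were. Klf4 was also not called without WT 1. None of the genes of the lists above was called, 927 genes had an unadjusted p under 0.05, DESeq2 called 19 genes, and edgeR 4 to 9 without Het 2, Het 3, Het 4 or KO 2.

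Members were also set against 1703 non-mitotic pallial progenitors, cells with at most 1 of the 7 mitotic genes, at most 1 Dlx UMI and at least 4 of Pax6, Sox2, Hes1, Hes5, Eomes and Neurog2. Eomes was detected in 87.5% of these cells and in 42.2% of members. Division and Eomes state therefore cannot be told apart between the 2 sets. The change of radial glia genes between KO and WT differed between the 2 sets. Of 12735 genes 99 (0.777%) had a different change, 83 with the higher value in members and 16 with the lower. Among 24 radial glia genes that were not part of the definition 14 were called, all with the higher value in members: Id4, Pdpn, Sox9, Aldoc, Ttyh1, Ddah1, Ednrb, Fabp7, Qk, Ptprz1, Slc1a3, Mt3, Mfge8 and Tnc. Their list had a median KO against WT log2 fold change of 0.28 in members and -0.49 in non-mitotic progenitors.

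Aldoc, a glycolytic enzyme of glia and radial glia, had a mean of 143 CPM in WT and 203 in KO among members, and of 225 and 103 among non-mitotic progenitors (log2 fold changes 0.51 and -1.16, difference 1.62 ± 0.12, edgeR adjusted p = 7.62e-06). Fabp7 changed by 0.11 in members and -1.16 in non-mitotic progenitors (difference 1.20 ± 0.17), the metallothionein Mt3 by -0.41 and -1.89 (difference 1.49 ± 0.13), and Id4 by 1.03 and -0.26 (difference 1.26 ± 0.14). Outside the list, Notch2 (1.46 ± 0.24) and Fgfr2 (1.49 ± 0.22) had the higher change in members, and Ccnd2 (-0.84 ± 0.15), Gadd45g (-1.14 ± 0.17) and Hist1h1e (-0.59 ± 0.12) the lower. Gadd45g rose by 1.19 in non-mitotic progenitors and had 0.08 in members. The makeup of the comparison set moved with genotype: its Eomes-positive share was 81.0 ± 3.94% in WT (SD, n = 3), 88.3 ± 2.46% in Het (n = 4) and 91.0 ± 2.40% in KO (n = 3). In members that share was 42.7% in WT, 44.9% in Het and 37.9% in KO, so from WT to KO the means moved in opposite directions. The part of these shares in the result was not tested. The count was 30 without WT 2, 61 without KO 2 and 50 without KO 3, and 224 without the members of other lineages, of which 94 were shared. Of the genes named here Notch2, Fgfr2, Ccnd2, Hist1h1e and Tnc lost their call without WT 2, Ccnd2 also without WT 3 or KO 2, Tnc without KO 3, and Hist1h1e without most single embryos.

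**Figure D5:**
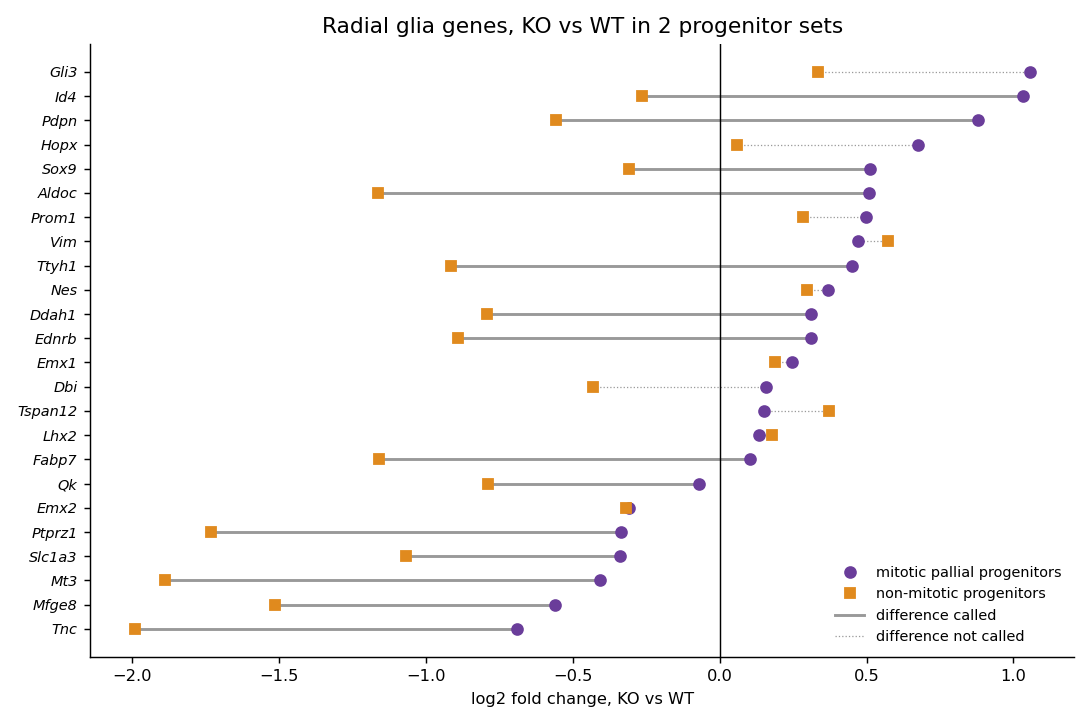
Log2 fold change of 24 radial glia genes between KO and WT in mitotic pallial progenitors (circles) and in non-mitotic progenitors (squares); solid lines join genes whose change differed at an adjusted p under 0.05 and dotted lines the others. For each of the 14 joined by solid lines the circle lies to the right of the square, as for Aldoc, at 0.51 and -1.16.

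Against the 2064 mitotic cells with at least 2 Dlx UMIs, 1 of 12734 genes (0.00785%) had a different change. None of 28 radial glia genes was called. Their median KO against WT log2 fold change was 0.26 in members and 0.20 in the Dlx-positive mitotic cells, so a rise in this list was not particular to members. The galectin Lgals1 had a mean of 74.7 ± 5.55 CPM in WT and 83.2 ± 15.9 in KO among members (SD, n = 3 each), and of 40.2 ± 7.92 and 158 ± 18.8 among Dlx-positive mitotic cells (difference -1.82 ± 0.21, edgeR adjusted p = 0.00837). It was not called without WT 1, without KO 1, without the members of other lineages or without marked doublets, where 1 other gene was. The difference was -1.56 without other lineages (edgeR adjusted p = 0.158), -1.60 without doublets, and -1.97 to -1.69 with any 1 embryo left out. An unadjusted p under 0.05 was reached by 594 genes, and DESeq2 called 1.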

How the data were processed

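For each embryo the authors deposited UMI counts of every gene in every barcode, made with 10X Genomics 3′ version 3 libraries and, per the submitters' processing notes, Cell Ranger 6.0.2 and mm10; the counts were not normalized and were checked to be whole numbers. The study's methods name an earlier Cell Ranger release, and the cell totals they state differ from the barcodes used here. Cells were kept by the study's limits on UMIs, set there from barcode rank plots, and on mitochondrial UMIs. UMIs of the members of an embryo, or of an Eomes state or comparison set, were summed, so that the embryo is the replicate. The study calls its Het and WT embryos littermates but does not say which embryos shared a litter. The p-values of the gene tests set a difference against the spread between these embryos. They do not separate genotype from litter, or from library prefix between KO and WT.

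Sums were filtered with filterByExpr, scaled by TMM and tested with edgeR 4.0.16 (quasi-likelihood F-test, Benjamini-Hochberg) in R 4.3.3. All 10 embryos were in 1 fit, with embryo as a block where 2 sums of an embryo were compared. Calls needed an adjusted p below 0.05 together with a log2 fold change beyond 0.25 in either direction, and interactions the adjusted p alone. The 10 genes of the membership rule stayed in the totals and were never called, nor was Eomes between Eomes states, nor the 6 genes that define non-mitotic progenitors against these. CPM in the text are TMM-normalized, except summed marker levels. Fold changes rest on sums over cells, in which fewer transcripts per cell and fewer cells with the transcript cannot be told apart. Shares were compared by two-sided exact permutation tests adjusted over 6 comparisons.

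The members and the gene lists were chosen with earlier results of these data known. Genes were named by a rule: the 10 largest called changes each way (5 for KO against Het) with a mean of at least 20 CPM, in which groups did not overlap or all 10 embryos agreed in sign, and any gene of the lists; Gm and Rik genes and sex, hemoglobin and rDNA genes were left out of the first part. For interactions the 5 largest called differences each way were named, with no minimum. Scrublet (scanpy 1.11.5) marked 0.0128% to 2.15% of the kept cells of an embryo by its own threshold, so the highest-scoring 4.80% to 8.31%, as many as the barcode number predicts, was marked instead; marked cells stayed in and were removed in an alternative. A member counted as carrying another lineage when at least 3 markers of 1 of 6 lists were detected.

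Alternatives were DESeq2 1.42.0, DESeq2 size factors, no filter, the library prefix as a covariate, a replicate block, other thresholds for members, thinned cells and leaving out each embryo. Fits of 1 Eomes state without other lineages, and interactions without other lineages, were added after seeing the data. On simulated data with 200 changed genes, the KO against WT fit on 12239 genes recovered 100% of 4-fold and 98% of 2-fold changes with 11 false calls, the Eomes fit on 10543 genes recovered 100% of both with 6, and the interaction with non-mitotic progenitors on 12451 genes recovered 100% and 93% with 7. Simulated sums had the same mean for each gene apart from the planted change, with no embryo effect and the trended dispersion. Changes were planted only in genes with a mean of at least 20 CPM. These figures check that the fits run as meant and do not give power or error rates for the real data. Promoter windows come from RefSeq for GRCm38.p6, which is the mm10 assembly; no window was found for Tpx2. A few genes that the rule would name are not reported here.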

Additional observations from a re-analysis of the deposited data

Results flagged for a closer look

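In 3 of 46 sets of 4 Het embryos that were tested for an embryo apart from the rest, 1 embryo exceeded Dixon's limit, where chance alone gives about 1 in 20. Hist1h2ap stood at 1627 CPM in Het 4 and at 1048.5 to 1080.1 in the other 3, and Het 4 is the Het library with the prefix of WT. Thrsp stood at 37.0 CPM in Het 2 and at 15.6 to 18.8 in the others. Hes1 stood at 46.9 CPM in Het 1 and at 61.7 to 63.7 in the others.

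The change between KO and WT differed, by the interaction term, for 13 named values. Between Eomes-positive and Eomes-negative members the difference was 2.99 ± 0.35 for Ucp2 and 2.61 ± 0.35 for Klf4 (log2 scale, ± SE). Between members and non-mitotic progenitors it was 6.26 ± 0.99 for Ermn, 4.20 ± 0.88 for Gm266, 3.17 ± 0.69 for Nkx2-3, 2.56 ± 0.57 for Scml4 and 2.39 ± 0.47 for Daam2. In the other direction it was -6.84 ± 0.89 for Tspo2, -2.69 ± 0.28 for Ucp2, -2.58 ± 0.52 for Tuba4a, -1.66 ± 0.31 for Kcnq3 and -1.64 ± 0.24 for Kcnc1. Ermn, Gm266, Nkx2-3 and Scml4 had group means under 7 CPM in both sets, and Tspo2 under 9, so their fitted sizes depend on the prior count. Of these 10, Ucp2 and Kcnc1 kept their call with any embryo left out, and Ucp2, Tspo2 and Tuba4a lost it without the members of other lineages. Kcnc1, a potassium channel, had a mean of 29.2 ± 5.18 CPM in WT and 9.12 ± 2.49 in KO members, against 19.2 ± 1.89 and 19.1 ± 0.321 in non-mitotic progenitors (SD, n = 3 each). Between members and mitotic Dlx-positive cells the difference for Lgals1 was -1.82 ± 0.21.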

How the results depend on the processing

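Values that moved in the settings named are given here, and the list is not complete. The cause was not tested unless stated. Shares: the Eomes-positive share of Het against WT, 2.18 points in the report, was -3.62 points in members with Emx1 and no Dlx UMI, -1.19 without other lineages, -0.444 in thinned cells and -2.48 in libraries of 1 prefix, where Het 4 is the only Het embryo. That of KO against WT was 0.270 points with 3 of 7 mitotic genes. With 1 embryo left out the differences ranged from 0.330 to 0.693 (Het against WT), 0.630 to 0.898 (KO against WT) and 0.0586 to 0.421 points (KO against Het) for the share of members, and from -0.371 to 3.78, -7.30 to -3.15 and -8.48 to -5.21 points for the Eomes-positive share. Genes of Het against WT: 16 by DESeq2, 1 without a filter, 0 to 20 with 1 embryo left out. KO against WT: 1 with the prefix covariate, 145 with Emx1 and no Dlx UMI, 720 without other lineages, 155 in Eomes-positive members without other lineages, 65 to 457 with 1 embryo left out. KO against Het: 57 by DESeq2, 40 without a filter, 4 with the prefix covariate, 5 with only these 2 groups in the fit, 6 without doublets, 16 with Emx1 and no Dlx UMI, 64 without other lineages, 5 in libraries of 1 prefix, 19 in Eomes-positive and 86 in Eomes-negative members without other lineages, 2 to 9 with 1 embryo left out. Eomes states: 2954 in thinned cells, 2059 with Emx1 and no Dlx UMI, 4139 to 4509 with 1 embryo left out. Interaction with the Eomes state: 19 by DESeq2, 250 without a filter, 28 without doublets, 2 to 9 with 1 embryo left out. Against non-mitotic progenitors: 546 without a filter, 224 without other lineages, 30 to 137 with 1 embryo left out. Against mitotic Dlx-positive cells: 32 without a filter, 0 without other lineages, 0 or 1 with 1 embryo left out. Removing the filter admits genes with few UMIs.

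Of 154 single-gene values none changed sign, and 93 lost no call in any setting; 61 lost a call in at least 1, 201 times with 1 embryo left out and 150 times otherwise. Deviations of samples with the same replicate number had correlations of -0.20 to 0.39 over 9 pairs. WT 3 with KO 3 had 0.39 and Het 2 with KO 2 had 0.14. These values show no regular pairing but cannot exclude a shared litter, and the main fits did not pair embryos by the number. With it as a replicate block the gene counts were 11 (Het against WT), 276 (KO against WT) and 0 (KO against Het), and the shares of members differed by 0.554, 0.751 and 0.197 points and the Eomes-positive shares by 3.73, -4.75 and -8.48 points.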
